A study of Mus musculus with 12 samples.

Results

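The data cover 10 imprinted genes that regulate growth in MEF cells, and all but Cdkn1c averaged under 1 RPM in every group, with at most 28 reads over the 6 libraries of an experiment. They are Dlk1, Peg3, Mest, Plagl1, Ndn and Nnat, which are transcribed from the paternal allele, and H19, Meg3, Grb10 and Cdkn1c, which are transcribed from the maternal allele in most tissues. The members were chosen by name, as the entries of the RPM tables whose gene column equals one of these 10 symbols, out of 46765 names in either table. The table of the mutant experiment lists all 10 and the table of the 2-HG experiment lists 9, without Nnat. RPM states how many of every 1000000 counted reads fell on a gene.

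There were 4 groups of 3 libraries. MEF cells are mouse embryonic fibroblasts, here taken from C57BL/6 embryos and immortalized by serial passage. Control cells carry an empty retroviral vector and 2MUT cells carry the same vector with a FLAG-tagged human mutant IDH2, both as stably selected populations. 2-HG(+) cells received 300 μM of a membrane-permeable ester of 2-hydroxyglutarate (2-HG) for 24 h. The 2-HG(-) cells are labelled as DMSO-treated for 24 h, while the study's text calls them non-treated. Both comparisons ask how the levels of these genes differ in cells with mutant IDH2, or with its product 2-HG. No cells with wild-type IDH2 were sequenced, so the mutation and added IDH2 protein cannot be told apart. The study does not describe repeated transductions, so differences between selected populations cannot be told apart from the mutant either.

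Genomic imprinting silences 1 parental copy of a gene through DNA methylation laid down in the germ line at an imprinting control region and copied at each cell division. ZFP57 and ZFP445 bind the methylated copy, TRIM28 and SETDB1 hold it in a repressive state, and DNMT1 with UHRF1 copies the methylation. TET enzymes oxidize methylcytosine and need α-ketoglutarate, with which 2-HG competes. The network of these growth genes is best known from embryo and placenta, where paternally expressed members tend to promote growth and maternally expressed members tend to restrain it. Reads were not assigned to a parental allele, so the values are total transcript levels.

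The libraries held 6472439 to 7313602 reads in the 2MUT experiment and 14959318 to 18363769 in the 2-HG experiment. In RPM, 3 reads were therefore worth 0.41 to 0.464 in a library of the first and 0.163 to 0.201 in a library of the second. Mouse Idh2 read 70.9 to 80.8 RPM in Control and 42.6 to 55.2 RPM in 2MUT. Whether its amplicon also reads the human transgene was not tested, so it is no check of the labels. Of 12 fibroblast markers, Col1a1, Col1a2, Col3a1, Vim, Pdgfra, Pdgfrb and Twist1 were well detected, Thy1 averaged 80.4 RPM in Control, 24.2 in 2MUT, 2.76 in 2-HG(-) and 5.23 in 2-HG(+), while Fap, Lum, Prrx1 and S100a4 were near or under 1 RPM or not listed. Of the markers of other cell types, Epcam, Krt18, Myod1, Elavl3 and Tie1 had 0 reads in all 12 libraries. Others were detected, with group means up to 12.1 RPM for Tubb3 and 14.1 for Map2 (neural), 2.8 for Des (muscle), 1.08 for Pecam1 (endothelial) and 0.754 for Krt19 (epithelial). Among markers of blood cells, Cd14 reached 38.5 RPM, Cd68 12.4 and Csf1r 1.28, while Ptprc had at most 1 read in a library. The 2 tables list different sets of names, and the same gene can lie far apart in them, so changes were computed only within a table. Levels set side by side across tables describe detection or show where a log2 scale of RPM + 1 compresses a change.

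The start sites of the members are shown first because imprinting control regions often lie at them. RefSeq promoter windows on GRCm38.p6, running from 250 bases before to 50 bases after a start site, were matched by symbol for 8 of the 10 members, as 12 windows. H19 and Cdkn1c were not matched. TGCCGC, the hexamer that ZFP57 reads in its methylated form, was searched on both strands, where it appears as TGCCGC or GCGGCA. It occurred in 6 of these 12 windows and in 11.6% of all 32817 windows of the same length. Of the 6, 2 overlap at Mest, and the others lie at Plagl1, Nnat, Meg3 and Grb10. The windows of Dlk1, Ndn and Peg3 held no match. A match describes the letters and is not evidence of binding. The windows of 4 genes with a match and of Peg3 without one are printed 5′ to 3′ on the strand of the gene, with the hexamer in capitals. They are Plagl1 at chr10:13090582-13090881 (plus strand), Mest at chr6:30737803-30738102 (plus), Nnat at chr2:157559828-157560127 (plus), Meg3 at chr12:109540746-109541045 (plus) and Peg3 at chr7:6730370-6730669 (minus).
Plagl1: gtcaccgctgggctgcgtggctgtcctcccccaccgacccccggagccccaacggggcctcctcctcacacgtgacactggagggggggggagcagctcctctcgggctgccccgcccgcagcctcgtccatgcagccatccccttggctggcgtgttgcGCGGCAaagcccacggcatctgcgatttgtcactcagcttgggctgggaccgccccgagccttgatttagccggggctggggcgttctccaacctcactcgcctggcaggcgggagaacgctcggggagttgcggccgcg
Mest: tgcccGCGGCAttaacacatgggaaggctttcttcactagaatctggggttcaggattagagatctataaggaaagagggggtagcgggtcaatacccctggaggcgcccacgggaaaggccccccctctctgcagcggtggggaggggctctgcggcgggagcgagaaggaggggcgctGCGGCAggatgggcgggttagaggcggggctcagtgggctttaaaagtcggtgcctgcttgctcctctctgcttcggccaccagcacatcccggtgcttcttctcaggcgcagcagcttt
Nnat: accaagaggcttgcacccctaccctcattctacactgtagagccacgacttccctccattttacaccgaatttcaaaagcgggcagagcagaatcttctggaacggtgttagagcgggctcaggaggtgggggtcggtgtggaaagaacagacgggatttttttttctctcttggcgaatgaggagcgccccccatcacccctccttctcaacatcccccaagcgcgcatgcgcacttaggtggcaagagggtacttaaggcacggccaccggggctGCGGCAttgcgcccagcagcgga
Meg3: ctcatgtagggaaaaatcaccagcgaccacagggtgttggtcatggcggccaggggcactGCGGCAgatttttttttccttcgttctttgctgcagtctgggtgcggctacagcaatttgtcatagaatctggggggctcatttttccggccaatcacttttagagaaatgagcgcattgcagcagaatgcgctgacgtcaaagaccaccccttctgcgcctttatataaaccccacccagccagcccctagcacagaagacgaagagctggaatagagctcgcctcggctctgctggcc
Peg3: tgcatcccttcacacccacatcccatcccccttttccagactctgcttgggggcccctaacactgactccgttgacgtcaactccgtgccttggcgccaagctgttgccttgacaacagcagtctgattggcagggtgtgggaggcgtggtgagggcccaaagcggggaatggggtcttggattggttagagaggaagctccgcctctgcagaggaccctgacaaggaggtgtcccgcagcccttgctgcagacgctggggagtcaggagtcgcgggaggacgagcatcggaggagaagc

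The printed windows hold 26 CpG at Plagl1, 17 at Mest, 17 at Nnat, 13 at Meg3 and 13 at Peg3, against a median of 7 over all windows. Each of the 5 was above that median, but windows with 13 or more CpG make up 37.9% of all windows, those with 17 or more 31.4% and those with 26 or more 16.9%. A second window of Meg3 held 1 CpG and a further one of Mest held 8, and neither held the hexamer. None of these 5 genes reached 1 RPM in any library.

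The paternally expressed members were at the limit of detection throughout. Dlk1, a transmembrane protein of the Notch ligand family that keeps preadipocytes undifferentiated, lies at 12:109452823-109463336 on GRCm38 and had 0 reads in all 12 libraries. Ndn (Necdin, 7:62346569-62350262), a MAGE family protein that holds cells out of division, also had 0 reads in all 12. Nnat (Neuronatin, 2:157560078-157562522), a small membrane protein whose gene lies within Blcap, had 0 reads in the 6 libraries of the 2MUT experiment. Counting error allows up to 0.072 RPM for a gene with 0 reads over the 6 libraries of the 2MUT experiment and up to 0.0309 RPM over those of the 2-HG experiment, taking 3 reads as the limit.

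Peg3 (7:6703892-6730431), a zinc finger protein known for its part in fetal growth and maternal behaviour, had 0 reads in the 2MUT experiment. In the 2-HG experiment it had 1 read, in 2-HG(-) replicate 1. A single read cannot be compared between groups.

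Mest (also Peg1, 6:30723547-30748465), an α/β-hydrolase fold protein linked to fetal and adipose growth, had 8 reads over the 6 libraries of the 2MUT experiment. Its values were 0.296, 0 and 0.41 RPM in Control and 0.155, 0 and 0.275 RPM in 2MUT, so the groups overlap. In the 2-HG experiment it had 4 reads, as 0.054, 0 and 0 RPM in 2-HG(-) and 0.066, 0.06 and 0.065 RPM in 2-HG(+). The 2-HG(+) values all exceed the 2-HG(-) values, but each of them is 1 read, and the 2-HG(-) value of 0.054 is also 1 read in a deeper library. Mest overlaps Copg2 on the opposite strand.

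Plagl1 (also Zac1, 10:13060504-13131694), a zinc finger factor that regulates other imprinted genes, had 5 reads in each experiment. It read 0.148, 0.142 and 0 RPM in Control and 0.309, 0 and 0.138 RPM in 2MUT. With 2-HG it read 0.054, 0.134 and 0.06 RPM in 2-HG(-) and 0, 0.06 and 0 RPM in 2-HG(+). The groups overlap in both experiments.

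Summed over the paternally expressed members, a Control library held 0.142 to 0.444 RPM and a 2MUT library 0 to 0.464 RPM. A 2-HG(-) library held 0.06 to 0.162 RPM and a 2-HG(+) library 0.065 to 0.12 RPM. None of the 6 reached the mean of 1 RPM required for testing, and no rise or fall was detectable at this depth. Whether their amplicons read these transcripts well was not tested.

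The maternally expressed members were also near the limit, apart from Cdkn1c. Meg3 (12:109541001-109571726), a long non-coding RNA of the Dlk1 region that restrains growth, had 1 read in the 2MUT experiment, in Control replicate 2, and 0 reads in the 2-HG experiment. Grb10 (11:11930508-12038683), an adaptor that damps insulin receptor signalling, had 4 reads in each experiment. It read 0, 0 and 0.273 RPM in Control and 0.155, 0 and 0.138 RPM in 2MUT. It read 0.109, 0.067 and 0 RPM in 2-HG(-) and 0.066, 0 and 0 RPM in 2-HG(+), so the groups overlap in both.

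H19 (7:142575529-142578143), a long non-coding RNA and the host of Mir675 that restrains growth beside Igf2, had 6 reads in the 2MUT experiment and 28 in the 2-HG experiment. Control libraries read 0, 0.427 and 0.137 RPM and 2MUT libraries read 0, 0.293 and 0 RPM. In the 2-HG experiment H19 read 0.49, 0.067 and 0.72 RPM in 2-HG(-) and 0.198, 0.06 and 0.131 RPM in 2-HG(+). Replicates 1 and 3 of 2-HG(-) lay above every 2-HG(+) library, while replicate 2 of 2-HG(-) lay among them. Pooled over libraries, the 22 reads of 2-HG(-) gave 0.44 RPM (exact Poisson 95% interval, counting error only, 0.276 to 0.666) and the 6 reads of 2-HG(+) gave 0.127 RPM (0.0468 to 0.277). H19 was under the 1 RPM filter. In fits of every name with a read, the log2 difference of H19 was -0.31 with limma (adjusted p = 0.22) and -1.68 with edgeR's quasi-likelihood test (adjusted p = 0.12), so the difference did not pass.

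**Figure D1:**
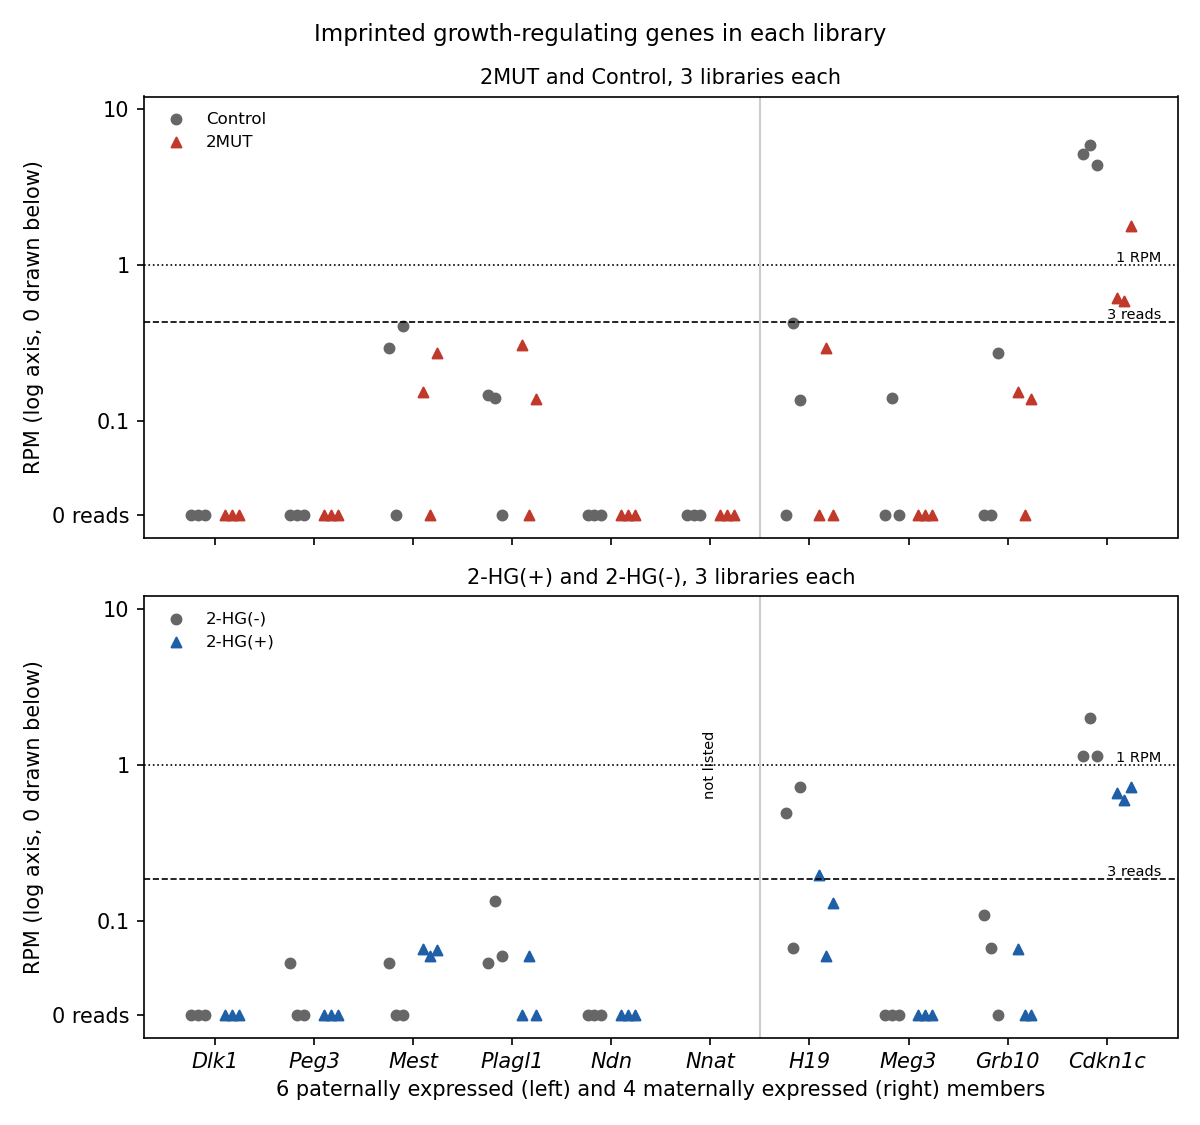
RPM of each member in each library, on a log axis with 0 reads drawn as a separate level below it. Circles are Control or 2-HG(-) libraries and triangles are 2MUT or 2-HG(+) libraries; the dashed line marks the mean worth of 3 reads in a library and the dotted line 1 RPM. Cdkn1c was the only member with any library above 1 RPM.

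In all, 9 of the 10 members had a mean under 1 RPM in the 2MUT experiment, or 90%, where 74.4% of all 43280 listed names did. In the 2-HG experiment 8 of the 9 listed members did, or 88.9%, against 56.6% of 23930 names. Members with 0 reads numbered 4 and 3, while 57.1% and 24.2% of all names had 0 reads. The sources do not say why the tables differ in length, and names with 0 reads count toward the shares under 1 RPM. The shares are therefore not set against each other across the experiments.

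Cdkn1c encodes p57KIP2, an inhibitor of cyclin-dependent kinases that brings cells out of division, and is expressed from the maternal copy in a cluster on distal chromosome 7. It lies at 7:143458339-143461050 on the minus strand of GRCm38, where GENCODE M21 also places Gm44732 on the plus strand. Its level was lower in 2MUT than in Control. Control libraries read 5.179, 5.84 and 4.375 RPM, a mean of 5.13 ± 0.734 (SD, n = 3). The 2MUT libraries read 0.618, 0.586 and 1.789 RPM, a mean of 0.998 ± 0.686. The groups do not overlap, and 2MUT replicate 3 was the highest of its group. The share of all genes whose groups do not overlap was not computed in either experiment, so no weight rests on this here or below. These values rest on 108 reads in Control and 21 in 2MUT. The log2 fold change of RPM + 1 was -1.66 (SE 0.27, limma adjusted p = 0.00087), a scale that understates the change of a low gene. On recovered reads edgeR gave -2.32 (adjusted p = 0.0013). Cdkn1c was the 1 member tested, and its mean of 3.06 RPM passed the filter through the Control libraries, so a count of 1 called of 1 says nothing about the members. Of the 11065 genes tested in this comparison 33.8% were called, and 17.3% were called lower.

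With 2-HG, Cdkn1c was lower as well, by a smaller margin. The 2-HG(-) libraries read 1.144, 2.005 and 1.141 RPM, a mean of 1.43 ± 0.498 (SD, n = 3). The 2-HG(+) libraries read 0.661, 0.601 and 0.719 RPM, a mean of 0.66 ± 0.059. The groups do not overlap, on 70 and 31 reads, and 2-HG(-) replicate 2 stood above the rest of its group. The log2 fold change of RPM + 1 was -0.53 (SE 0.18, limma adjusted p = 0.043). It was -0.96 with 0.1 as the added value (limma adjusted p = 0.034), and on recovered reads -1.08 with edgeR (adjusted p = 0.037) and -1.09 with DESeq2 (adjusted p = 0.056). Its mean of 1.05 RPM over the 6 libraries is just over the filter at 1 RPM and was reached through the 2-HG(-) libraries. In this comparison 32.8% of 10384 genes were called and 16.7% were called lower. This call was lost in 10 of 16 alternatives, including the omission of any 1 of the 6 libraries, where the adjusted p ran from 0.053 to 0.12. Without 2-HG(-) replicate 2 the value was -0.37 (adjusted p = 0.12). In the 2MUT comparison, the call held in all 16 alternatives that tested it, with values from -2.41 to -1.52.

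**Figure D2:**
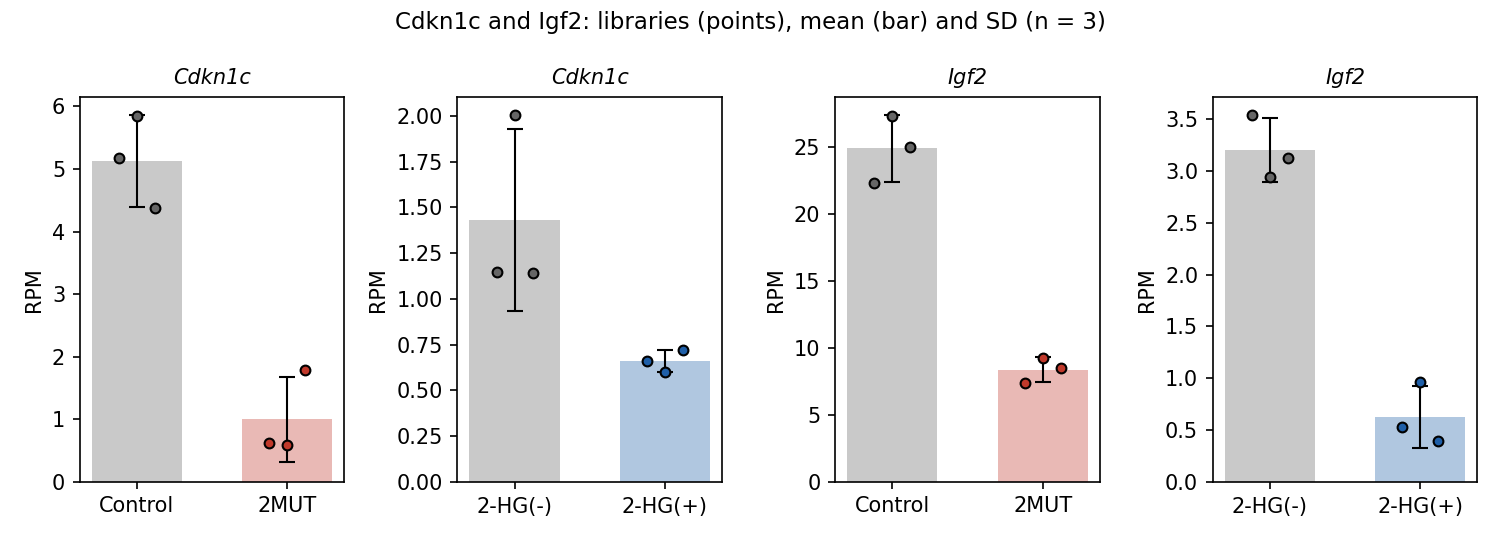
RPM of Cdkn1c and of Igf2 in the 3 libraries of each group (points), with the group mean (bar, from 0) and SD (line). In each of the 4 panels all treated or mutant libraries lie below all control libraries. The share of all genes with such a separation was not computed. The vertical scales differ between panels.

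The fall of Cdkn1c was larger in the 2MUT comparison than in the 2-HG comparison. The difference of the log2 changes was -1.13 (SE 0.33, limma adjusted p = 0.014), and 39.4% of 9594 genes passed the same test. The 2 comparisons share no libraries, but the starting levels differ, 5.13 RPM in Control and 1.43 RPM in 2-HG(-), and a log2 change of RPM + 1 is compressed more at the lower level. With 0.1 in place of 1 as the added value the difference was -1.45 and the adjusted p was 0.051. Fibroblast markers moved in the same comparisons. Of 8 tested, 7 were lower in 2MUT, where 17.3% of all genes were, and 4 were lower and 1 higher in 2-HG(+), where 16.7% and 16.1% were. The summed level of the listed markers was 11150 to 12224 RPM in Control and 7653 to 8278 in 2MUT, and 20411 to 21942 in 2-HG(-) and 13920 to 15219 in 2-HG(+). Some markers of other cell types moved too. Cd14 rose by 1.58 on the log2 scale in 2MUT (limma adjusted p = 6.5e-05), while Cd68 changed by -0.39 (adjusted p = 0.19). The tested neural, muscle and endothelial markers did not pass in 2MUT. With 2-HG, Tubb3 rose by 1.51 (adjusted p = 7.2e-05), Map2 fell by 0.93 (adjusted p = 0.0021) and Cd68 fell by 0.51 (adjusted p = 0.021). Cd14 (0.24, adjusted p = 0.21), Csf1r (-0.06, adjusted p = 0.81) and Des (0.22, adjusted p = 0.40) did not pass with 2-HG. The part of these markers in the change of Cdkn1c was not tested. In bulk RNA, fewer cells of a kind and less RNA per cell cannot be told apart.

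The genes whose pattern over the 12 libraries was most like that of Cdkn1c were sought by Euclidean distance of log2(RPM + 1), centred within each table, among 9593 other genes. The nearest was Jmjd8, a JmjC domain protein, at a distance of 0.723, with changes of -1.42 in 2MUT (limma adjusted p = 0.0001) and -0.33 with 2-HG (adjusted p = 0.03). S100a7a, an S100 family member, followed at 0.79, with -1.75 (adjusted p = 5.6e-06) and -0.19 (adjusted p = 0.36). Cox7a1, a subunit of cytochrome c oxidase, came next at 0.791, with -1.56 (adjusted p = 0.00014) and -0.79 (adjusted p = 0.0031). These distances describe likeness over these libraries only. The genes were chosen for this pattern, so their changes and adjusted p-values are not independent support.

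Cdkn1c and H19 lie in the same imprinted stretch of distal chromosome 7, in domains with separate control regions, and the other listed genes there differed in direction. Igf2 (7:142650766-142666816), the paternally expressed growth factor next to H19, was lower in both comparisons. It read 22.3, 27.4 and 25.0 RPM in Control and 7.42, 9.22 and 8.53 RPM in 2MUT, a log2 fold change of -1.46 (SE 0.16, limma adjusted p = 7.2e-05). In the 2-HG experiment it read 3.54, 2.94 and 3.12 RPM in 2-HG(-) and 0.529, 0.962 and 0.392 RPM in 2-HG(+), a change of -1.38 (SE 0.17, limma adjusted p = 0.00031). The groups do not overlap in either experiment. The scale of RPM + 1 compresses the fall at the lower 2-HG level, where edgeR on recovered reads gave -2.31 (adjusted p = 0.00047), against -1.57 in 2MUT (adjusted p = 4.1e-05). The difference of the changes was -0.08 (limma adjusted p = 0.80) with 1 as the added value and 0.69 (adjusted p = 0.15) with 0.1, so its direction depends on that value. Igf2 was among the genes that the study selected on these libraries for a change in both, so its direction is not independent evidence. Igf2os overlaps it on the other strand.

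In the domain of Cdkn1c, Slc22a18, an organic cation transporter, was lower in 2-HG(+) with a log2 fold change of -0.62 (limma adjusted p = 0.023) and was under 1 RPM in the 2MUT experiment. Phlda2, a placental growth restrainer, Kcnq1, a potassium channel, Ascl2, a trophoblast factor, and Th, an enzyme of dopamine synthesis, were under 1 RPM in both, and Kcnq1ot1 had 0 reads in the 2MUT experiment. Osbpl5, a lipid transfer protein, rose in 2MUT by 0.77 (adjusted p = 0.0014) and fell in 2-HG(+) by 0.40 (adjusted p = 0.023). Cd81, a tetraspanin, rose in 2MUT by 0.37 (adjusted p = 0.0097) and fell in 2-HG(+) by 0.35 (adjusted p = 0.048). Nap1l4, a histone chaperone, rose in 2MUT by 0.68 (adjusted p = 0.0071), and its change with 2-HG was 0.23 (adjusted p = 0.072). Dhcr7, an enzyme of cholesterol synthesis, rose in 2-HG(+) by 0.44 (adjusted p = 0.013), and its change in 2MUT was -0.09 (adjusted p = 0.55). Tssc4 passed in neither, with -0.35 in 2MUT (adjusted p = 0.39) and -0.28 with 2-HG (adjusted p = 0.21). The calls of Cd81, Osbpl5 and Slc22a18 with 2-HG were lost in 9 of 17, 6 of 17 and 5 of 16 alternatives. These genes are named for their position, after their values were seen.

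Tnfrsf23 (7:143665809-143685872), a decoy receptor of the TNF receptor family at the edge of that cluster, had the largest change of the imprinted genes tested in 2MUT. It read 9.62, 8.55 and 6.43 RPM in Control and 182, 191 and 176 RPM in 2MUT, a log2 fold change of 4.34 (SE 0.15, limma adjusted p = 1.9e-08). In the 2-HG experiment its mean was 60.9 ± 3.15 RPM in 2-HG(-) and 56 ± 3.24 RPM in 2-HG(+) (SD, n = 3), and it did not pass the test. The difference of the changes was 4.46 (SE 0.18, limma adjusted p = 1.8e-09). Tnfrsf22 is a close relative next to it, and reads could be shared between them.

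Over a list of 53 other imprinted genes, 22 could be tested in the 2MUT comparison, of which 6 were higher and 2 lower, or 36.4% called against 33.8% of all genes. In the 2-HG comparison 25 were tested, of which 2 were higher and 8 lower, or 40% against 32.8%. With a library left out, 1 to 2 were higher and 4 to 7 lower, and the unmoderated test gave 4 lower. The median log2 fold change of those tested was 0.24 in 2MUT and -0.15 in 2-HG(+), beside 0.01 and -0.02 over all genes tested. The shares called in the fits as described were near those of all genes. Many genes of this list are imprinted only in placenta or brain.

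Set apart by parental origin, the other paternally expressed genes gave 5 tested in the 2MUT comparison, with 0 higher and 1 lower, and 8 tested with 2-HG, with 0 higher and 3 lower. The gene lower in 2MUT was Igf2, while the median of the 5 was 0.21. Those lower in 2-HG(+) were Igf2, Peg10, a retrotransposon-derived gene needed for the placenta, with -0.81 (adjusted p = 0.0015), and its neighbour Sgce, a sarcoglycan, with -0.51 (adjusted p = 0.0044). The other maternally expressed genes gave 17 tested in each comparison, with 6 higher and 1 lower in 2MUT and 2 higher and 5 lower in 2-HG(+). Background shares were 16.5% higher and 17.3% lower in 2MUT, and 16.1% higher and 16.7% lower in 2-HG(+). Dcn, an extracellular matrix proteoglycan imprinted in placenta, was the gene of this group with the largest fall in both, by 0.86 in 2MUT (adjusted p = 8.3e-05) and by 1.24 in 2-HG(+) (adjusted p = 3.4e-05). Dcn is another gene that the study selected on these libraries.

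**Figure D3:**
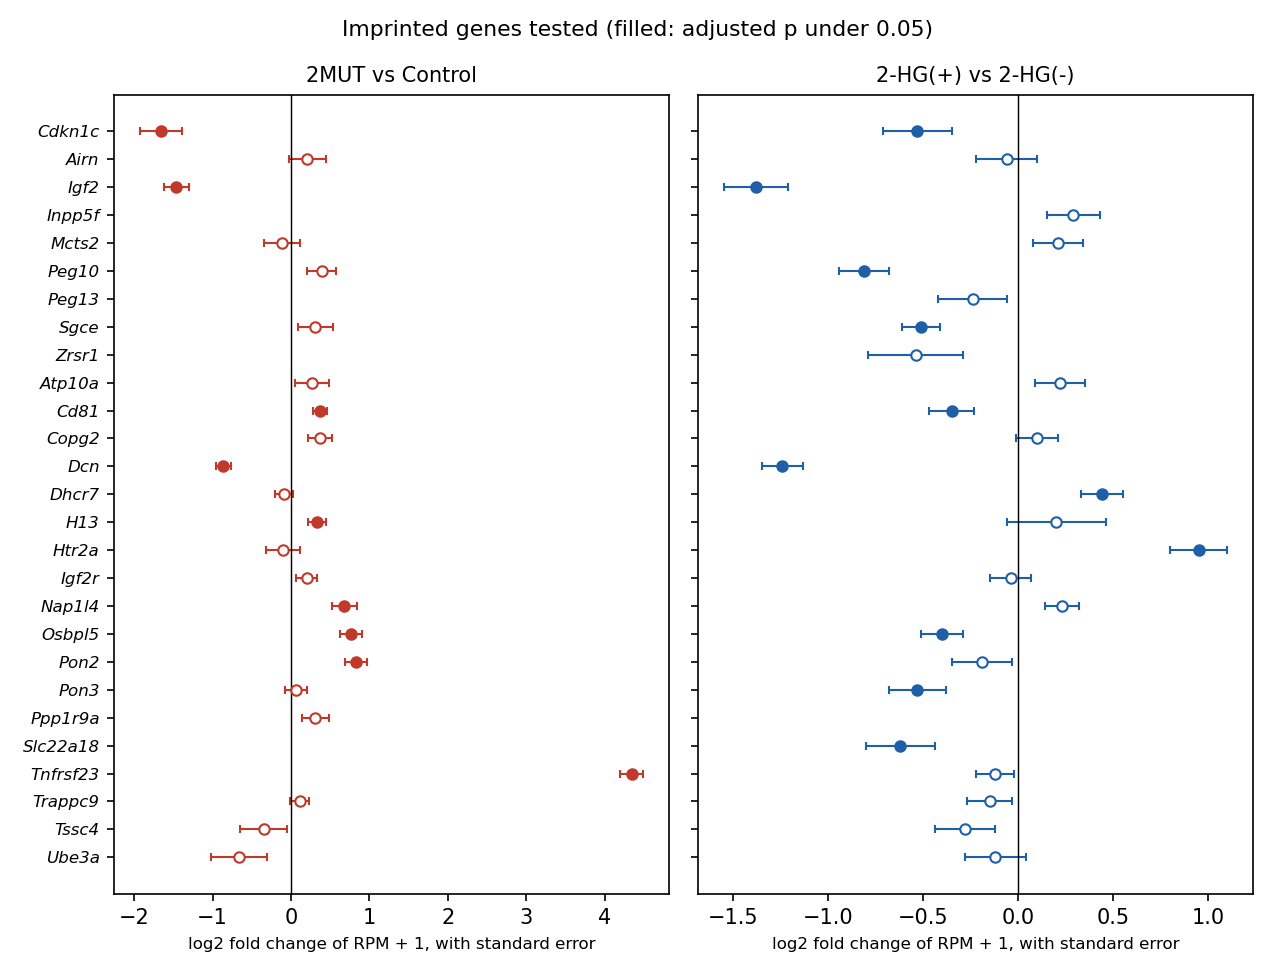
Log2 fold change of RPM + 1 with its standard error for every imprinted gene tested, 2MUT against Control on the left and 2-HG(+) against 2-HG(-) on the right. From the top are Cdkn1c, the other paternally expressed genes from Airn to Zrsr1 and the other maternally expressed genes from Atp10a to Ube3a; filled points passed an adjusted p of 0.05 and the horizontal scales differ. Cdkn1c, Igf2 and Dcn are filled on the lower side in both panels.

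The difference of the changes was tested for 21 of the other imprinted genes, and 9 moved higher in 2MUT relative to 2-HG and 2 lower, where 19.9% and 19.5% of all genes did. Paternally expressed genes gave 2 of 5 higher, which were Peg10 (1.21, limma adjusted p = 0.00048) and Sgce (0.82, adjusted p = 0.011). Maternally expressed genes gave 7 of 16 higher and 2 of 16 lower, but among the higher the calls of Dcn, Pon3 and Nap1l4 were lost in 12, 11 and 10 of 20 alternatives. Apart from Tnfrsf23, those with an absolute difference of at least 1 were Osbpl5 (1.17, limma adjusted p = 0.00014), Pon2, a paraoxonase (1.02, adjusted p = 0.0022), and Htr2a, a serotonin receptor (-1.05, adjusted p = 0.0042).

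Of 12 genes that maintain imprints or remove DNA methylation, 11 were tested in each comparison. In 2MUT 2 were higher and 3 lower, and in 2-HG(+) 2 were higher and 1 lower, or 45.5% and 27.3% called against 33.8% and 32.8% of all genes, so the shares were near the background. Uhrf1, which recruits DNMT1 to newly copied DNA, moved in opposite directions. Control libraries averaged 52.8 ± 6.91 RPM and 2MUT libraries 11.6 ± 2.52 RPM (SD, n = 3), with a change of -2.11 on the log2 scale (SE 0.18, limma adjusted p = 1.0e-05). It was 46 ± 3.44 RPM in 2-HG(-) and 101 ± 12.1 RPM in 2-HG(+), a change of 1.12 (SE 0.12, limma adjusted p = 0.00012). The difference was -3.23 (SE 0.22, adjusted p = 1.6e-07).

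Dnmt1, the maintenance methyltransferase, fell by 0.86 in 2MUT (limma adjusted p = 0.0011), and its change with 2-HG was 0.37 (adjusted p = 0.055). Setdb1, a histone H3 lysine methyltransferase, rose by 0.98 in 2MUT (adjusted p = 0.00013), and its change with 2-HG was -0.01 (adjusted p = 0.93). Tet3 rose by 0.46 in 2MUT (adjusted p = 0.0056) and Tet2 fell by 0.67 in 2-HG(+) (adjusted p = 0.0066). Zfp57, the reader of the hexamer, was detected but did not pass in either, with changes of -0.28 (adjusted p = 0.13) and -0.06 (adjusted p = 0.78). The difference of the changes passed for 6 of the 11, with 3 in each direction, where 39.4% of all genes passed, 19.9% higher and 19.5% lower. Smchd1, an imprinting and X-inactivation factor, fell in 2MUT by 0.30 and rose in 2-HG(+) by 0.36, and these calls were lost in 9 of 17 and 7 of 17 alternatives.

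**Figure D4:**
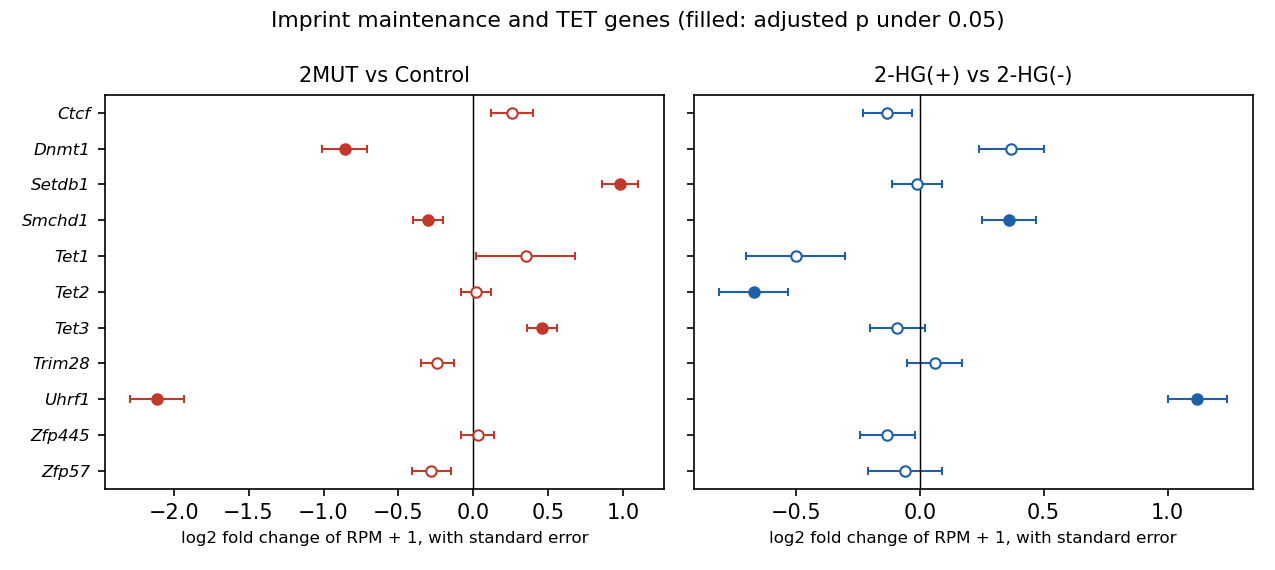
Log2 fold change of RPM + 1 with its standard error for the 11 tested genes of imprint maintenance and DNA demethylation, 2MUT against Control on the left and 2-HG(+) against 2-HG(-) on the right. Filled points passed an adjusted p of 0.05 and the horizontal scales differ; Uhrf1 is lower in 2MUT and higher in 2-HG(+).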

How the data were processed

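Ion AmpliSeq libraries, which read 1 short amplicon per transcript, were made from MEF cells, 12 in all and 3 in each of 4 groups taken from the sample labels. The study states that experiments were run in triplicate but not whether these were separate cultures, so p-values measure the spread between these libraries. The authors aligned the reads with TMAP to an AmpliSeq mouse transcriptome reference, counted them per gene in the AmpliSeqRNA plug-in, and deposited a table of RPM for each experiment, with 0 columns left without a sample. The genome build is not given in the sources used here. An amplicon does not see transcripts that lack its target.

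RPM values were raised by 1 and taken to log2, and each comparison of 6 libraries was fitted in limma 3.58.1 (R 4.3.3) with the trend option of eBayes. Only genes averaging 1 RPM or more were tested. Calls required an adjusted p-value (Benjamini-Hochberg over all genes tested) under 0.05, with no limit on fold change. The study's own per-gene test, without moderation, was an alternative. Whole reads were recovered from RPM (99.89% to 100% of values within 0.05 reads of a whole number) and passed to edgeR 4.0.16 and to DESeq2 1.42.0. Further alternatives were an added value of 0.1, no filter, a filter at 10 RPM, median-of-ratios, TMM and quantile scaling, a block for the replicate number, and omission of each library in turn. The edgeR fit without a filter was added after seeing the data. In simulated data, limma recovered 92 of 100 genes changed by 1 on the log2 scale in the 2MUT comparison and 96 of 100 in the 2-HG comparison. The simulation used a fixed spread and drew changed genes from all tested genes, so it does not give the recovery at the level of Cdkn1c. Replicates differed by more than sampling noise in every pair.

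All 10 members are named. Other imprinted genes are named where they passed with an absolute log2 fold change of at least 1, up to 8 a comparison, maintenance genes up to 5 a comparison, and the 3 genes nearest to a called member. The rest were chosen after their values were seen. The members and lists were chosen with earlier results of these data known. Coordinates come from GENCODE M21 on GRCm38 and promoter sequences from RefSeq. Python 3.11.15 with pandas 2.3.3, scipy 1.17.1 and matplotlib 3.10.9 made the tables and plots.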

Additional observations from a re-analysis of the deposited data

Results flagged for a closer look

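The change of Cdkn1c differed between the experiments by a test of the difference itself. The 2MUT change minus the 2-HG change was -1.13 on the log2 scale (limma adjusted p = 0.014). With 0.1 as the added value the limma adjusted p was 0.051, and 39.4% of 9594 genes passed the main test. Cdkn1c passed the filter through the control libraries in each experiment. Starting levels differ, and the scale compresses the change more at the lower level. No explanation was tested.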

How the results depend on the processing

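Cdkn1c, the 1 member lower in each comparison, was not tested with the filter at 10 RPM, which leaves 0 members lower in 2MUT, 0 lower in 2-HG(+) and 0 with a difference between the changes. In 2-HG(+) the count was also 0 with quantile normalization, the unmoderated test, DESeq2 and the replicate block, and ranged from 0 to 0 when each library was left out. The difference between the changes gave 0 members with an added value of 0.1. The other imprinted genes higher in 2-HG(+) numbered 1 with the replicate block and 1 to 2 with a library left out, against 2. Those lower numbered 5 with the filter at 10 RPM, 4 with the unmoderated test, 5 with the replicate block and 4 to 7 with a library left out, against 8. The cause was not tested. No called result reversed, and the difference of the changes of Igf2, which was not called, went from -0.08 to 0.69 with an added value of 0.1. Deviations of same-numbered libraries from their group means correlated at 0.071, 0.029 and 0.032 in the 2MUT experiment. In the 2-HG experiment they correlated at -0.457, -0.158 and 0.057, while 2-HG(-) replicate 2 and 2-HG(+) replicate 1 gave 0.48. The replicate numbers were therefore not used to pair samples in the main fits. With at most 28 reads in 6 libraries for the members other than Cdkn1c, depth limits what can be said of them. How well their amplicons read them was not tested.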
